A study of Mus musculus with 18 samples.

Results

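The genes described are 35 that encode complement and coagulation factors made by the liver, among 18193 genes that the array's probe sets named. Each gene was read from its probe set with the highest mean over 18 arrays, and the genes were compared over 6 groups of livers. Of the 35 genes, 32 had a probe set of their own, and all 32 passed the filter on dim genes, as did 12578 genes in all. C3 and Cpb2 had no listed probe set, and the only probe set listed for C4b was shared with C4a, so these 3 genes are given no value. The 32 genes were read at log2 values from 8.58 to 14.23, against array medians of 5.23 to 5.29, and each lay above the median on all 18 arrays.

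Clotting factors and most soluble complement proteins are secreted into the blood by hepatocytes, the main cells of the liver. The coagulation cascade is a chain of proteases that ends with thrombin cutting fibrinogen into fibrin, and it is held back by antithrombin, protein C and protein S. Complement is another chain of proteases, started by antibodies, by lectins that bind microbial sugars or by slow self-activation, and it ends with a pore built from the terminal components. Several of these genes belong to the acute phase response, in which inflammation changes hepatic secretion.

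RNA was measured in livers of male mice 12 weeks old fed a synthetic diet for 8 weeks, since weaning at 4 weeks, and killed after a fast of 4 h. The knockouts, genotype Alb-Cre+/-/POR-lox+/+ and called LivPORKO, delete cytochrome P450 reductase (Por), the electron donor of microsomal P450 enzymes, through a Cre driven by the albumin promoter, which acts in hepatocytes. The controls, Alb-Cre-/-/POR-lox+/+, carry the same floxed alleles without Cre, so all mice were floxed and only the knockouts carried Cre. The added fat was lard, canola oil, or a fish/fungal mix of ARASCO and menhaden oils, at 7% of the diet in the sample labels and 6% in the series text. Each of the 6 groups had 3 arrays, and each array carried pooled RNA of 3 mice, so errors and p-values measure the spread between pools. Por itself had no named probe set, which leaves the genotype labels without a check on their target.

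The group means of most of the 32 genes lay close together, though not much closer than those of all genes tested. C2 and Pros1 ranged most, by 0.69 log2 each (1.61-fold). The median range of the 6 group means was 0.20 on the log2 scale for the 32 genes, 0.23 for all genes tested, and 0.23 for the 2852 genes at least as bright as the dimmest of the 32. Within groups the median SD of a gene was 0.11 for the 32 genes, 0.14 for all genes tested and 0.14 for the genes as bright. At an adjusted p under 0.05 (limma with Benjamini-Hochberg adjustment over all 12578 genes), 2 of 32 genes were called for the knockout averaged over diets, Pros1 and C9. Of all genes tested, 4.57% were called for the knockout. For fish/fungal oil, 1 of the 32 was called, Mbl2, both against lard and against canola oil. There 2.32% and 0.986% of all genes tested were called. The differences are small, and each call ended when some single arrays were left out.

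The pools were alike for most of these genes, but 1 control array on canola oil stood apart as low and 1 on lard as high. The second control pool on canola oil held the lowest of the 18 values for 15 of the 32 genes (46.9%), among them Fga, Fgb, Fgg, C2 and Hc, against 11.5% of all genes tested. There, 28 of 32 genes lay below their group mean, with a median deviation of -0.11 against -0.0042 for all genes. Masp2 deviated most, by -0.44, and Mbl2 lay above its group mean by 0.13. The second control pool on lard held the highest value for 11 of the 32 genes (8.01% of all genes tested), and the third knockout pool on fish/fungal oil for 7 (6.27%). On that lard pool only 8 of 32 genes lay below their group mean, with a median deviation of 0.071 against 0.0073 for all genes. For several comparisons that use the canola pool, counts above or below 0 and some of the largest values are also given without it. Counts at an unadjusted p or by overlap of pools include it.

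**Figure D1:**
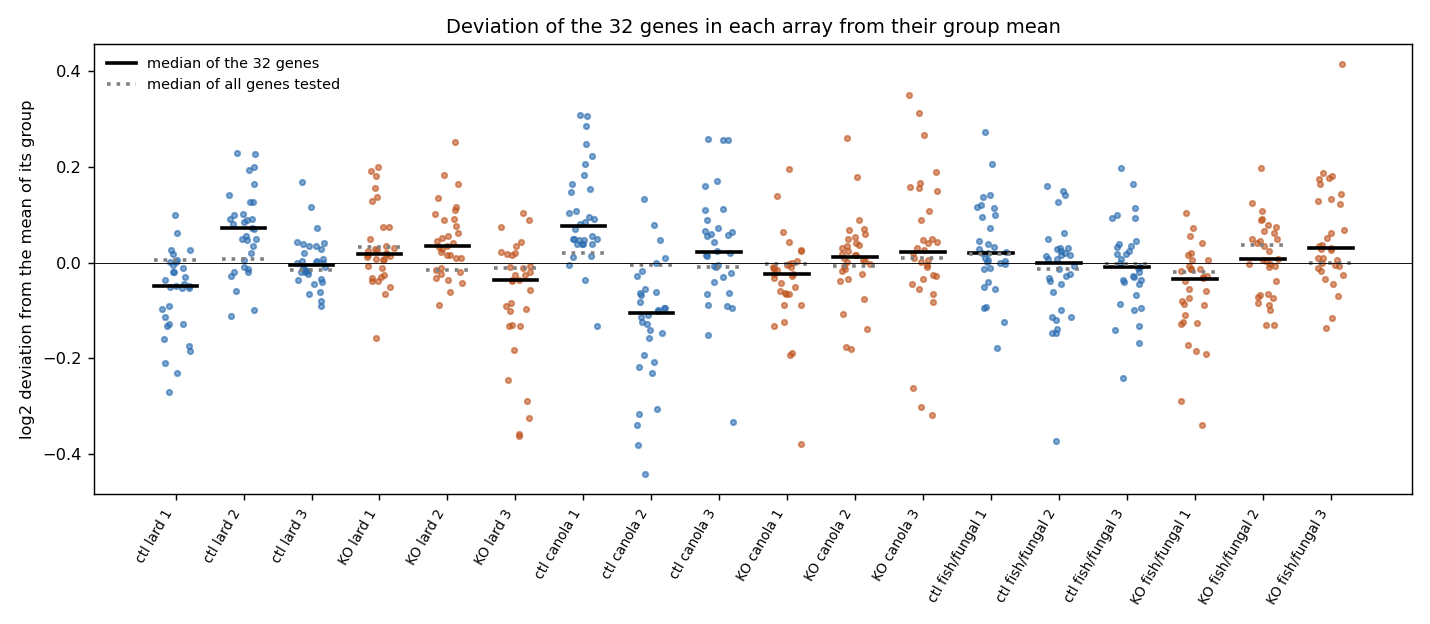
Each point is 1 of the 32 genes on 1 array, plotted as its log2 deviation (vertical axis) from the mean of its group, for the 18 arrays in order of diet (horizontal axis; ctl, control in blue; KO, knockout in orange). Black lines mark the median of the 32 genes and dotted grey lines that of all genes tested; control canola 2 has a median of -0.11 with 28 of 32 points below 0, while its dotted line lies at -0.0042.

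Fibrinogen, the precursor of the fibrin clot, is a protein of 3 chains encoded by Fga, Fgb and Fgg, which lie next to each other with no other protein-coding gene between them in the RefSeq table. These 3 promoters are shown because the 3 genes were among the steadiest of the 32. Each line gives the 250 bases before the RefSeq start of the gene (mouse build GRCm38.p6), on the gene's strand, 5′ to 3′. Capitals mark matches, on either strand, to letters searched for factors that act on hepatic secretory genes: the C/EBP motif TTGCNNAA, an HNF1 core GTTAAT and an IL-6 response element CTGGGAA. Fga lies at chr3:83025903-83026152 on the plus strand, Fgb at chr3:83049864-83050113 on the minus strand and Fgg at chr3:83007474-83007723 on the plus strand.
Fga: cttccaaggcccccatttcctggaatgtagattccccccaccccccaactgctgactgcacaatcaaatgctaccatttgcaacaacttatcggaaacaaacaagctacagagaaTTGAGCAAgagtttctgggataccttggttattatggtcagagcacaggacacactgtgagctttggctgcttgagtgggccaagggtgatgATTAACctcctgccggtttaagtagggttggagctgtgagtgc
Fgb: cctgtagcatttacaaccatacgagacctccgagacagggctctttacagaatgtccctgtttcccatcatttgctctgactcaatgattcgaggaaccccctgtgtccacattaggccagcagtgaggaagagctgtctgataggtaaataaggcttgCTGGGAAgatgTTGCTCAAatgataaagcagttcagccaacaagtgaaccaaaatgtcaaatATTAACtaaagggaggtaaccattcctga
Fgg: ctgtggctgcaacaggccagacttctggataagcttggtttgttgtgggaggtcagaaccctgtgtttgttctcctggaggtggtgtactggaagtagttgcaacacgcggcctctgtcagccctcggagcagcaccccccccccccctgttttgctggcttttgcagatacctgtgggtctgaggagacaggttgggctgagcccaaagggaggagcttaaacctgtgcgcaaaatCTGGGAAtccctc
In Fga the C/EBP match began 135 bases and the HNF1 core 43 bases before the start. In Fgb the IL-6 element, the C/EBP match and the HNF1 core began 91, 80 and 29 bases before it, and in Fgg the IL-6 element began 13 bases before it. Such matches are descriptions of letters and not of bound factors.

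A promoter window was listed for 25 of the 32 genes. The HNF1 core stood in 6 of the 25 (24%, C8a, C8b, F13b, Fga, Fgb and Hc), against 7.49% of 27025 genes with a window. The C/EBP letters stood in 6 (24%, C9, F11, F9, Fga, Fgb and Klkb1), against 10.8%, and the IL-6 element in 4 (16%, F9, Fgb, Fgg and Masp2), against 10.4%. The full HNF1 palindrome, the HNF4 letters CAAAGTCCA and the DR1 direct repeat of nuclear receptors were in none of these 25 genes' windows and in 0.0111%, 0.451% and 0.0407% of all genes with a window. The letters searched overlap in the HNF1 pair only, since the palindrome contains the core.

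Fibrinogen RNA varied little over the 6 groups. Group means ran from 14.14 to 14.19 for Fgg, from 13.70 to 13.78 for Fga and from 14.04 to 14.14 for Fgb, ranges of 0.051, 0.079 and 0.10 log2. Knockout minus control, averaged over diets, was 0.012 ± 0.025 (SE) for Fgg, 0.0027 ± 0.031 for Fga and 0.0041 ± 0.031 for Fgb, and the 95% intervals of all 3 lay within 0.2 of 0. Fish/fungal oil minus lard was -0.0078 for Fgg, -0.042 for Fga and -0.045 for Fgb, with SEs of 0.030, 0.038 and 0.038, none past the threshold, although in controls the 3 fish/fungal pools lay below the 3 lard pools for Fga and Fgb. All 3 had their lowest value on the second control canola pool (Fgg 14.09, Fga 13.61 and Fgb 13.94). The values stand near the top of the deposited scale, which ends at 14.89, and the files carry no measure of saturation.

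The question of the main comparison was how loss of hepatic Por moves gene expression, here taken as the mean of the knockout minus control differences on the 3 diets. Pros1, which encodes protein S, the cofactor of activated protein C, rose, and C9, the pore-forming last component of complement, fell. The 2 calls are 6.25% of the 32 genes, and 4.57% of all genes tested were called, so the share is near the background; by direction 1 of 32 was higher (3.82% of all genes) and 1 lower (0.755%). At an unadjusted p under 0.05 there were 6 of the 32 (F11, Pros1, C2, Cfi, Hc and C9), against 18% of all genes. The median difference of the 32 was -0.012 against -0.0047 for all genes tested, and the median size was 0.061 against 0.068. The 95% interval of the difference lay within 0.2 of 0 (1.15-fold) for 18 of the 32 genes, within 0.3 (1.23-fold) for 27 and within 0.5 (1.41-fold) for 31. Without the low control canola pool 2, 22 of the 32 values were below 0 in place of 17, with a median of -0.030.

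**Figure D2:**
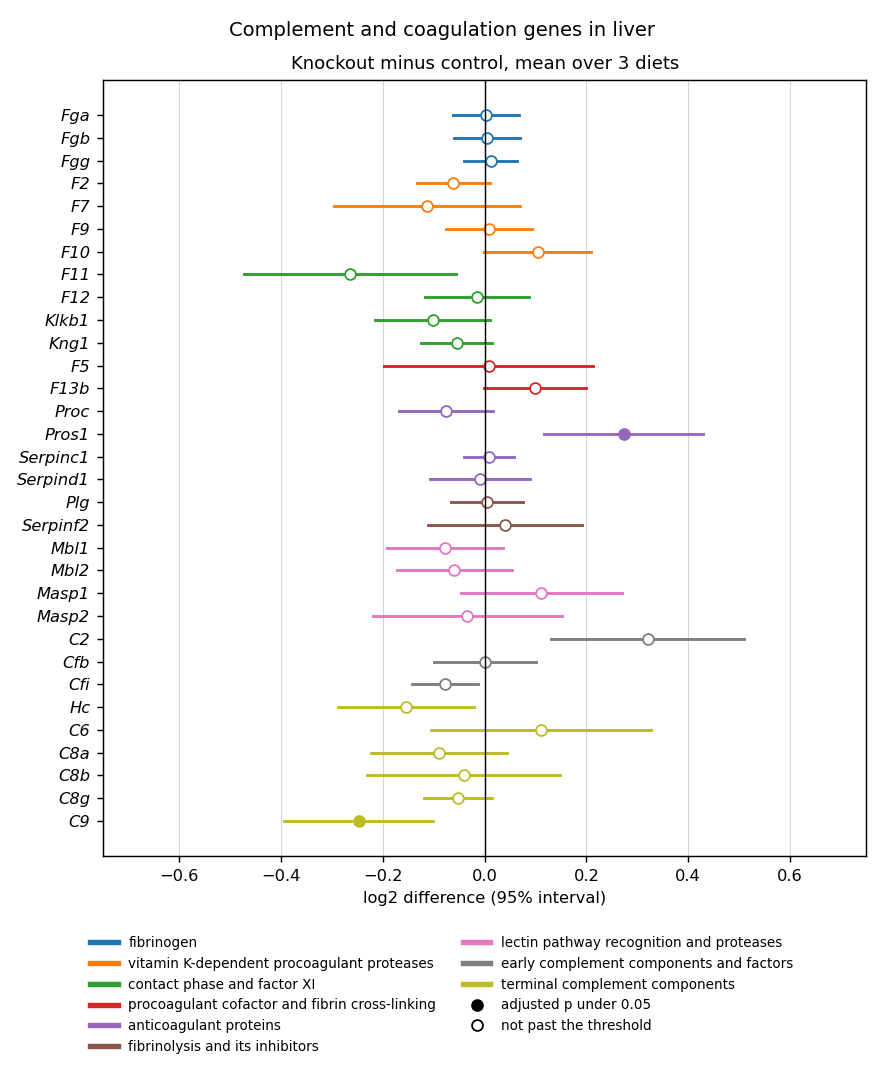
Log2 difference of knockout minus control, averaged over the 3 diets (horizontal axis), for the 32 genes coloured by role (vertical axis); lines are 95% intervals from the limma fit and filled points have an adjusted p under 0.05. Pros1 at 0.27 and C9 at -0.25 are filled, C2 at 0.32 and F11 at -0.26 are the highest and lowest points, and the 3 fibrinogen genes sit between 0.0027 and 0.012.

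Pros1 was read at 9.07, 9.21 and 9.09 in the 3 control pools on lard, at 8.98, 8.64 and 8.58 on canola oil and at 8.94, 8.84 and 9.19 on fish/fungal oil. In the knockout pools it was read at 9.36, 9.15 and 9.19 on lard, at 9.20, 9.08 and 8.75 on canola oil and at 9.39, 9.42 and 9.45 on fish/fungal oil. The knockouts on fish/fungal oil were the 3 highest of all 18 arrays, and only on that diet did the genotypes not overlap. Averaged over diets the knockouts were higher by 0.27 ± 0.07 (SE, 1.21-fold, adjusted p = 0.043, limma), from 0.11 ± 0.13 on lard and 0.27 ± 0.13 on canola oil to 0.43 ± 0.13 on fish/fungal oil. A dependence of this difference on diet was not shown (interaction F test, unadjusted p = 0.25). The F test of any difference among the 6 groups called Pros1 as the only 1 of the 32 genes (adjusted p = 0.041, limma; 3.4% of all genes called), with 7 of the 32 at an unadjusted p under 0.05 (13.8%), and that call was lost without the low control canola pool 2. Leaving out 1 array ended the averaged knockout call for 15 of the 18 arrays, with adjusted p from 0.051 to 0.10. It held without the first control pool on canola oil (0.017), the third knockout pool on canola oil (0.013) or the third control pool on fish/fungal oil (0.028). Without the low control canola pool 2 the difference was 0.26 with an adjusted p of 0.076.

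C9 was read at 13.28, 13.57 and 13.47 in the control pools on lard, at 13.28, 13.12 and 13.30 on canola oil and at 13.59, 13.38 and 13.51 on fish/fungal oil. The knockout pools stood at 13.32, 13.29 and 12.77 on lard, at 13.10, 12.97 and 13.26 on canola oil and at 13.24, 13.12 and 13.19 on fish/fungal oil. The genotypes were apart on fish/fungal oil and overlapped on the other diets, and the third knockout pool on lard was the lowest of all arrays. The knockouts were lower by 0.25 ± 0.07 (log2 difference -0.25, 0.84-fold, adjusted p = 0.0498, limma), with -0.31 ± 0.12 on lard, -0.12 ± 0.12 on canola oil and -0.31 ± 0.12 on fish/fungal oil. The adjusted p lies at the threshold, and leaving out 1 array ended the call for 12 of the 18 arrays (0.0505 to 0.109). It held without the first control pool on lard (0.038), any of the 3 knockout pools on lard (0.032 to 0.047), the second control canola pool (0.047) or the third knockout canola pool (0.033). Without the low knockout pool 3 on lard the difference was -0.19.

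The other terminal components, which build the membrane attack complex with C9, gave no call. Hc, the gene of C5, was at -0.15 ± 0.06 (adjusted p = 0.20), C8a at -0.091 ± 0.063, C8g at -0.052 ± 0.032, C8b at -0.041 ± 0.090 and C6 at 0.11 ± 0.10 for knockout minus control. Of the 6 terminal components, C9 included, 5 had a value below 0 and 1, C6, above it, while 52.0% of all genes tested were below 0. With 1 array left out, C8b ran from -0.092 to 0.019. C8a and C8b, which lie next to each other in the genome, both had values below 0.

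C2 had the largest of the 32 values and stood just outside the threshold. It encodes the protease that supplies the catalytic part of the classical and lectin C3 convertase, and macrophages are known to make it as well as hepatocytes. The control pools were read at 10.51, 10.46 and 10.49 on lard, at 10.66, 10.13 and 10.26 on canola oil and at 10.98, 10.65 and 10.69 on fish/fungal oil. The knockout pools were read at 11.10, 10.99 and 10.61 on lard, at 10.67, 10.89 and 10.33 on canola oil and at 11.08, 11.11 and 10.92 on fish/fungal oil. All 3 knockouts lay above all 3 controls on lard, and the genotypes overlapped on the other diets. Averaged over diets, knockout minus control was 0.32 ± 0.09 (SE, adjusted p = 0.051, limma), with 0.41 ± 0.16 on lard, 0.28 ± 0.16 on canola oil and 0.27 ± 0.16 on fish/fungal oil. The 3 probe sets of C2 gave 0.32, 0.34 and 0.37, with adjusted p from 0.055 to 0.14 when all probe sets were fitted. The adjusted p fell under the threshold without any 1 of 5 arrays (0.017 to 0.046): the third knockout pool on each of the 3 diets, the first control canola pool or the first control pool on fish/fungal oil. Without the low control canola pool 2 the difference was 0.28 (adjusted p = 0.093). Cfb, the C2 homologue of the alternative pathway and its direct neighbour in the genome, was at 0.00095 ± 0.048.

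F11, the zymogen of the protease that activates factor IX, had the lowest of the 32 values. Its control pools stood at 10.80, 10.69 and 10.92 on lard, at 10.79, 10.49 and 10.88 on canola oil and at 10.81, 10.85 and 10.47 on fish/fungal oil. Its knockout pools stood at 10.46, 10.64 and 10.07 on lard, at 10.03, 10.44 and 10.75 on canola oil and at 10.60, 10.75 and 10.57 on fish/fungal oil. On lard the genotypes did not overlap, while on the other diets they did, and the third knockout pool on lard (10.07) and the first on canola oil (10.03) were the lowest of all arrays. The averaged difference of -0.26 ± 0.10 did not pass the threshold (adjusted p = 0.15, limma; 0.054 to 0.28 with 1 array left out). Klkb1, the neighbouring gene for plasma prekallikrein, was at -0.10 ± 0.05.

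Cfi, the protease that inactivates C3b and C4b, was read at 13.45, 13.57 and 13.49 in controls and 13.34, 13.46 and 13.39 in knockouts on lard. On canola oil it was read at 13.44, 13.33 and 13.40 in controls and at 13.28, 13.35 and 13.38 in knockouts, and on fish/fungal oil at 13.43, 13.39 and 13.48 and at 13.36, 13.37 and 13.36. The knockouts lay below all controls on fish/fungal oil, by small steps. Averaged over diets the difference was -0.078 ± 0.031, which missed the threshold (adjusted p = 0.18, limma).

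**Figure D3:**
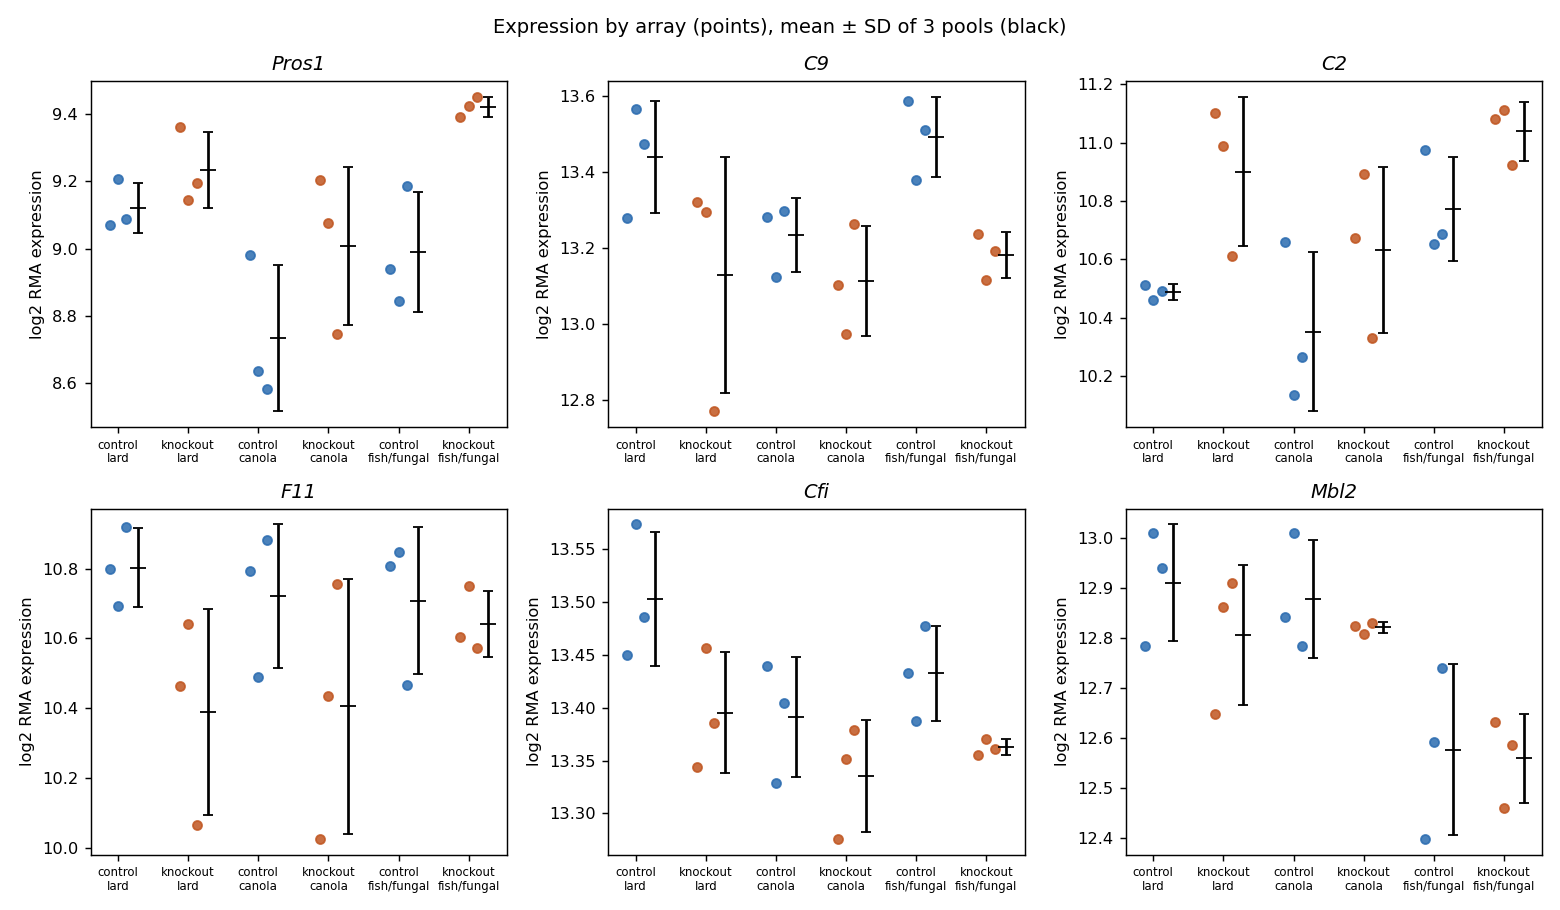
Log2 RMA expression (vertical axes, which differ in range and do not start at 0) on each of 18 arrays by genotype and diet (horizontal axes) for Pros1, C9, C2, F11, Cfi and Mbl2; blue points are control pools, orange points knockout pools, and black bars the mean ± SD of 3 pools. Pros1 is highest in the knockouts on fish/fungal oil (9.39 to 9.45), and all 6 Mbl2 values on fish/fungal oil (12.40 to 12.74) lie below 12.78, while 11 of the 12 others are at or above it.

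Among the vitamin K-dependent procoagulant proteases, F2, the gene of prothrombin, was at -0.062 ± 0.034 for knockout minus control averaged over diets, and F9, the hemophilia B factor, at 0.0082 ± 0.040. F7, the partner of tissue factor, was at -0.11 ± 0.09, and its neighbour F10, whose product makes thrombin, at 0.10 ± 0.05. None of the 4 passed the threshold. In the contact phase, F12 was at -0.015 ± 0.048 and Kng1, the kininogen that yields bradykinin, at -0.055 ± 0.033. With F11 and Klkb1 all 4 values were below 0, as were 52.0% of all genes tested, and none was called. With 1 array left out, F12 ran from -0.039 to 0.019. F5, the cofactor of factor X, was at 0.0082 ± 0.097, and F13b, the carrier subunit of the fibrin cross-linker, at 0.10 ± 0.05.

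Neither the anticoagulant proteins other than Pros1 nor the fibrinolysis genes held a call. Serpinc1, the gene of antithrombin, had group means that ranged over 0.063 log2, the second smallest range of the 32, and its knockout difference was 0.0082 ± 0.024. Serpind1, heparin cofactor II, was at -0.0085 ± 0.047 and Proc, protein C, at -0.076 ± 0.044. Plg, the precursor of the fibrin-dissolving plasmin, was at 0.0046 ± 0.033 and Serpinf2, the plasmin inhibitor, at 0.040 ± 0.072. In the lectin pathway, Mbl1 and Mbl2, which encode mannose-binding lectins, were at -0.077 ± 0.054 and -0.060 ± 0.054. Their proteases Masp1 and Masp2 were at 0.11 ± 0.07 and -0.034 ± 0.088. For Masp1, 1 of its 5 probe sets had the opposite sign (-0.15, against 0.073 to 0.17), and for F5 the second probe set was at -0.13, with none past the threshold.

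Within single diets no gene of the 32 was called for the knockout (limma, adjusted p under 0.05), while 0.986% of all genes tested were called on lard, 0.0636% on canola oil and 0.294% on fish/fungal oil. At an unadjusted p under 0.05 there were 5 on lard (F7, F11, Klkb1, C2 and C9; 10.5% of all genes), 1 on canola oil (Pros1; 6.14%) and 3 on fish/fungal oil (F10, Pros1 and C9; 7.62%). On lard, 28 of the 32 values were below 0, with a median of -0.069, whereas 51.1% of all genes were below 0 with a median of -0.0039. Without the second control pool on lard, the array with the most highest values, 23 were below 0 with a median of -0.049. On canola oil 15 of 32 were below 0, and without the low control canola pool 2 21 were, with a median of -0.042 in place of 0.0056. On fish/fungal oil 12 of 32 were below 0, with a median of 0.037. On lard the 3 knockout pools lay wholly below the 3 controls for 6 of the 32 genes (6.84% of all genes tested) and above for 1 (9.14%). On canola oil this held for none in either direction (4.24% and 7.04%), and on fish/fungal oil for 3 below (5.18%) and 3 above (5.72%). The F test of a dependence of the knockout effect on diet called none of the 32 and none of all genes tested (limma), with F10 alone of the 32 at an unadjusted p under 0.05, against 1.92% of all genes.

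Diet was compared next, averaged over both genotypes. On fish/fungal oil Mbl2 fell against lard and against canola oil, and it was the only gene of the 32 called in either comparison. This 1 call is 3.13% of the 32, where 2.32% of all genes tested were called against lard and 0.986% against canola oil. At an unadjusted p under 0.05 there were 4 of the 32 against lard (F12, Kng1, Mbl1 and Mbl2), against 13.1% of all genes. Mbl2 and its paralogue Mbl1 encode the mouse mannose-binding lectins, which bind microbial sugars and start the lectin pathway through Masp1 and Masp2. Since the paralogues had values of opposite sign on this diet, their upstream sequences are shown, the 250 bases before the start site that RefSeq's window uses (GRCm38.p6), 5′ to 3′ on the plus strand of both. For Mbl2 that site lies 22 bases inside the gene as the RefSeq table bounds it, so the window runs past the gene's first base; for Mbl1 they coincide. Mbl1 lies at chr14:41151206-41151455 and Mbl2 at chr19:30232678-30232927, and capitals mark the longest run of letters that both share, CTGGGGTTGAAGG.
Mbl1: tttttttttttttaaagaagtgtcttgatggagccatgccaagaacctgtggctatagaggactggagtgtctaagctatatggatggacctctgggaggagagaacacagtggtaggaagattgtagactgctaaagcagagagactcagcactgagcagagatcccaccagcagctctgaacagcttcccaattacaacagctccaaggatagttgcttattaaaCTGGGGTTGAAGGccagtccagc
Mbl2: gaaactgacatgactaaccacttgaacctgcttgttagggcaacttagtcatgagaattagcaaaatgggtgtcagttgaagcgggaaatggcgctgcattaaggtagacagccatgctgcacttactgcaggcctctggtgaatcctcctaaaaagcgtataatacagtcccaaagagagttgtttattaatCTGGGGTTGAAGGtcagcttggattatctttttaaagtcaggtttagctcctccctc
The shared run is 13 bases long and begins 23 bases before the window's start site in Mbl1 and 57 bases before it in Mbl2, which is 35 bases before the first base of the Mbl2 gene. Neither window held any of the 6 motifs searched.

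Mbl2 was read at 12.78, 13.01 and 12.94 in controls and at 12.65, 12.86 and 12.91 in knockouts on lard. On canola oil the controls were at 12.84, 13.01 and 12.78 and the knockouts at 12.83, 12.81 and 12.83. Fish/fungal oil gave 12.40, 12.59 and 12.74 in controls and 12.63, 12.46 and 12.59 in knockouts. In both genotypes all 3 pools on fish/fungal oil lay below all 3 pools on lard and below all 3 on canola oil. The difference from lard was -0.29 ± 0.07 (SE, 0.82-fold, adjusted p = 0.024, limma), with -0.33 ± 0.09 in controls and -0.25 ± 0.09 in knockouts. The difference from canola oil was -0.28 ± 0.07 (0.82-fold, adjusted p = 0.0498), and both comparisons use the same fish/fungal arrays. An effect of genotype on the diet difference was not shown (interaction F test, unadjusted p = 0.80). The call against lard ended without control pool 2 (adjusted p = 0.078) or 3 on lard (0.060), knockout pool 2 (0.055) or 3 on lard (0.062), or control pool 1 (0.057) or knockout pool 2 on fish/fungal oil (0.050). The call against canola oil held without control pool 1 (0.044), knockout pool 1 (0.039) or knockout pool 3 on lard (0.046) or control pool 3 on fish/fungal oil (0.029), and ended without any other array (0.055 to 0.12). When arrays were centred on the median of the genes tested, the differences were -0.26 from lard (adjusted p = 0.12) and -0.28 from canola oil (0.12).

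Mbl1 ran from 11.59 to 11.83 in controls and from 11.52 to 11.76 in knockouts on lard and canola oil together, and from 11.65 to 12.00 on fish/fungal oil. Its difference from lard was 0.14 ± 0.07 (adjusted p = 0.38) and from canola oil 0.13 ± 0.07 (adjusted p = 0.59), neither past the threshold. Kng1 came closest to a call after Mbl2 against lard, at -0.14 ± 0.04 (adjusted p = 0.077, limma; 0.047 without the third control pool on fish/fungal oil), and all 3 fish/fungal pools lay below all 3 lard pools in both genotypes.

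**Figure D4:**
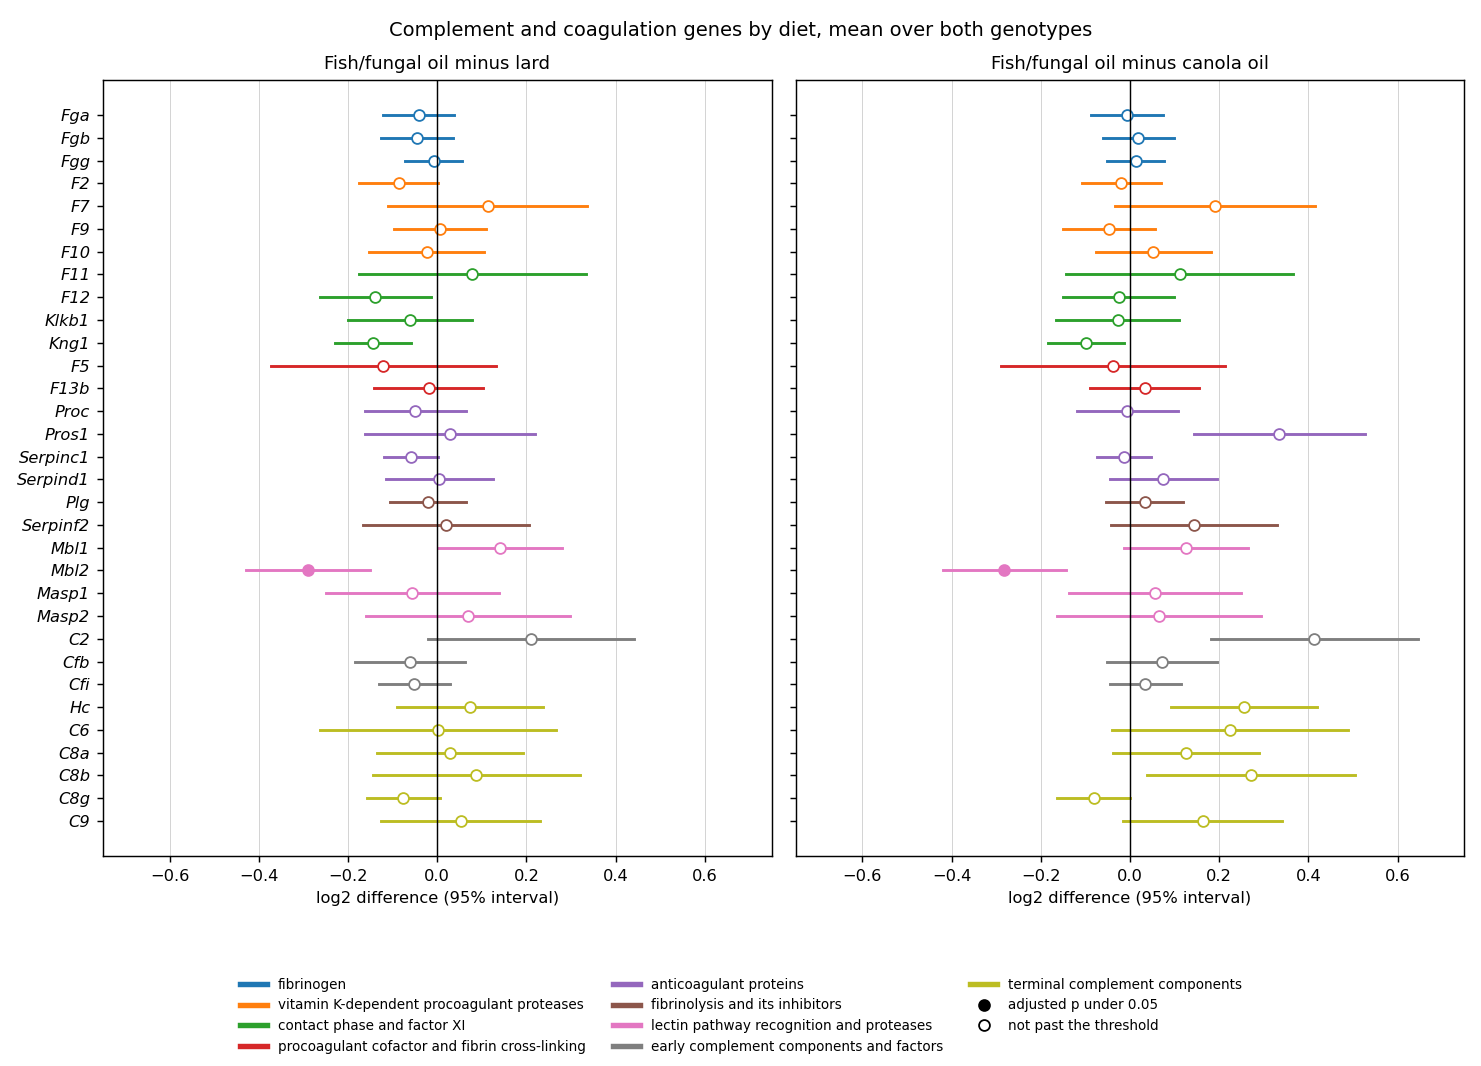
Log2 difference of fish/fungal oil minus lard (left) and minus canola oil (right), averaged over both genotypes (horizontal axes), for the 32 genes coloured by role (vertical axis), with 95% intervals from the limma fit. Filled points have an adjusted p under 0.05; Mbl2 at -0.29 and -0.28 is filled in both panels, which share the fish/fungal arrays, and C2 at 0.41 is the highest point on the right.

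The other genes had no call against lard. Values for fish/fungal oil minus lard were -0.086 ± 0.042 for F2, 0.11 ± 0.11 for F7, 0.0061 ± 0.049 for F9 and -0.024 ± 0.061 for F10. In the contact phase they were 0.078 ± 0.121 for F11, -0.14 ± 0.06 for F12 and -0.061 ± 0.066 for Klkb1. The 2 remaining procoagulant genes, F5 and F13b, were at -0.12 ± 0.12 and -0.019 ± 0.058. Of the anticoagulant proteins, Pros1 was at 0.028 ± 0.091, Serpinc1 at -0.060 ± 0.029, Serpind1 at 0.0044 ± 0.057 and Proc at -0.049 ± 0.054, and the fibrinolysis genes Plg and Serpinf2 were at -0.020 ± 0.041 and 0.020 ± 0.088. None of these coagulation genes was called, but pools were apart for some within a genotype. In controls all 3 fish/fungal pools lay below all 3 lard pools for F2, F10, F12, Klkb1, Serpinc1 and Plg (7.39% of all genes). In knockouts they lay below for Serpinc1 (6.14% of all genes) and above for F7, F10 and Pros1 (4.81%). Among complement genes, C2 was at 0.21 ± 0.11, Cfb at -0.062 ± 0.059, Cfi at -0.052 ± 0.038, Masp1 at -0.056 ± 0.092 and Masp2 at 0.069 ± 0.108. The terminal components were at 0.073 ± 0.078 for Hc, 0.0011 ± 0.126 for C6, 0.028 ± 0.078 for C8a, 0.088 ± 0.110 for C8b, -0.076 ± 0.039 for C8g and 0.053 ± 0.085 for C9. Of these complement genes, C8g had all 3 fish/fungal pools below all 3 lard pools in both genotypes, and Cfb in knockouts. For C2 they lay above in controls (6.2% of all genes). All 32 intervals lay within 0.5 of 0 and 26 within 0.3.

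Against canola oil, C2 at 0.41 ± 0.11 (adjusted p = 0.091, limma), Pros1 at 0.33 ± 0.09 (0.10), C8b at 0.27 ± 0.11 (0.38) and Hc at 0.26 ± 0.08 (0.16) were the largest values above 0, and none passed the threshold. At an unadjusted p under 0.05 there were 6 of the 32 (Kng1, Pros1, Mbl2, C2, Hc and C8b), against 9.68% of all genes tested. Without the low control canola pool 2 these values were 0.36 for C2, 0.31 for Pros1, 0.20 for C8b and 0.20 for Hc, and Mbl2 was at -0.25 with an adjusted p of 0.12. C2 and Pros1 also had the widest ranges of the 32 over the 6 groups, 0.69 log2 each (1.61-fold), from the controls on canola oil (10.35 and 8.73) to the knockouts on fish/fungal oil (11.04 and 9.42). Without pool 2 the controls on canola oil were at 10.46 for C2 and 8.78 for Pros1, and the ranges, still the 2 widest, were 0.58 and 0.64.

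Canola oil against lard called none of the 32 and none of all genes tested (limma), averaged or within a genotype, with 4 of the 32 at an unadjusted p under 0.05 on average (Pros1, Cfb, Cfi and Hc), against 6.77% of all genes. Within controls there were 4 (4.6% of all genes) and within knockouts 0 (4.83%). On average 28 of 32 values were below 0, with a median of -0.069 against -0.0085 for all genes (27 and -0.047 without the low canola pool). Without the second control pool on lard 27 were below 0, with a median of -0.055. In controls 30 of 32 were below 0 with a median of -0.11 (all genes -0.016), and without the low canola pool 28 were, with a median of -0.065. In knockouts, a comparison that does not use that pool, 21 of 32 were below 0 with a median of -0.023. Within single genotypes fish/fungal oil gave no call among the 32 either (limma). The background there was 0.716% against lard and 0.262% against canola oil in controls, and 0.461% and 0.159% in knockouts. At an unadjusted p under 0.05 there were 5 of the 32 against lard (7.97% of all genes) and 4 against canola oil (6.57%) in controls, and 3 (8.55%) and 4 (5.92%) in knockouts.

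The values of fish/fungal oil against lard leaned down in controls and up in knockouts. In controls 27 of the 32 were below 0, with a median of -0.086 against 0.0015 for all genes, and without the second control pool on lard 23 were, with a median of -0.053. All 3 fish/fungal pools lay below all 3 lard pools for 11 of the 32 genes there (7.39% of all genes tested) and above for 1, C2 (6.2%). In knockouts 20 of the 32 were above 0, with a median of 0.040 against -0.0073 for all genes, and the pools lay wholly below for 5 (6.14%) and above for 3 (4.81%). The F test of the interaction of genotype and diet called none of the 32. Against canola oil 17 of 32 were above 0 in controls, but without the low canola pool 21 were below 0, and 24 were above 0 in knockouts. There the pools lay wholly above canola oil for 2 genes (6.27%) and below for 1 (4.75%) in controls, and above for 5 (4.67%) and below for 4 (4.78%) in knockouts.

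F10 had values of opposite sign in the genotypes. On lard its pools were read at 12.11, 12.19 and 12.12 in controls and at 12.08, 12.18 and 11.93 in knockouts, and on canola oil at 12.14, 11.85 and 11.94 and at 12.07, 12.11 and 12.04. On fish/fungal oil they were at 12.07, 11.78 and 11.94 in controls and at 12.21, 12.27 and 12.20 in knockouts. The knockouts on fish/fungal oil were above all other arrays, and the controls there were below those on lard. Knockout minus control was 0.29 ± 0.09 on fish/fungal oil (adjusted p = 0.28, limma), -0.076 ± 0.087 on lard and 0.093 ± 0.087 on canola oil.

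Genes of the same systems outside the 35 were counted from lists for the averaged knockout effect. Over all genes tested the median was -0.0047, with 4.57% called (3.82% higher and 0.755% lower). Of 21 other complement genes tested 2 rose, C1qa (0.40) and C1qb (0.40), subunits of the macrophage-made C1q that are also in the macrophage list, with a list median of 0.043. Of 25 other coagulation and fibrinolysis genes 2 rose, Anxa2 (0.69) and S100a10 (0.42), which form a plasminogen-binding complex at cell surfaces (median 0.060). None of 11 vitamin K cycle and carboxylated protein genes was called (median 0.057), with Nqo1 at 0.32 and Ggcx, the carboxylase itself, at 0.19. Of 20 transcription factor and signalling genes of hepatic secretion 1 fell, Foxa3 (-0.28, adjusted p = 0.032, limma; median -0.072). Of 23 acute phase genes 6 rose, with a median of 0.16, among them Lcn2 (1.97), Orm3 (1.12), Cd14 (0.54) and the lipopolysaccharide-binding Lbp (0.34). For fish/fungal oil against lard, the vitamin K list held 1 call, Gas6, a protein S homologue (-0.59 ± 0.10, adjusted p = 0.0037, limma), and the other 4 lists none. Of all genes tested 2.32% were called in that comparison.

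Markers of cell types were read beside these results, against the same 4.57% of all genes called for the averaged knockout effect. Of 14 hepatocyte markers tested none was called (median -0.042). Their unlogged values were summed on each array, so the brightest markers weigh most. The log2 of this sum ran from 17.46 to 17.57 in controls and from 17.43 to 17.54 in knockouts. Of 18 Kupffer cell and macrophage markers 9 rose in the knockouts, among them Mmp12 (1.61), Cd68 (0.52), Mpeg1 (0.39) and Itgax (0.26), with a median of 0.34, and none fell. The log2 of their sum, made in the same way, ran from 13.33 to 14.06 in controls and from 13.69 to 14.49 in knockouts. Of the 18 markers, 16 lay above the array median on every array. Of 16 stellate cell and fibroblast markers 2 rose, Timp1 (0.36) and Col4a1 (0.55). None of 14 sinusoidal endothelial, 8 platelet, 3 cholangiocyte or 4 neutrophil markers was called, and 1 of 6 lymphocyte markers (Ighm, -0.58) and 1 of 5 pancreatic acinar markers (Cela1, -0.57) fell. Of 2 adipocyte markers Fabp4 rose (0.45), while the defining Adipoq and Lep were above the array median on no array. For fish/fungal oil against lard none of these lists held a call. Against canola oil, the comparison with C2 at 0.41, the macrophage list had a median of 0.32 (all genes 0.0066) and 1 call, Lyz2 (0.65, adjusted p = 0.037, limma). The 4 neutrophil markers tested had a higher median there, 0.45, with none called. The acute phase list had a median of 0.15 there and 2 calls, both higher, Itih3 (1.25-fold) and Orm2 (2.83-fold), and no other list held a call. Of all genes tested 0.986% were called there. The part of the macrophage, neutrophil and acute phase differences in the values of C2, Pros1 and C9 was not tested. In pooled tissue RNA, fewer cells of a type and less RNA per cell cannot be told apart.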

How the data were processed

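Total RNA from liver was hybridised to Affymetrix Mouse Genome 430 2.0 arrays, 18 in all. Per the submitters' processing notes, RMA (no version given) produced the deposited values, whose log2 scale was read from their range of 2.41 to 14.89. No array was normalized again. RMA forces all arrays to a common distribution, so a shift shared by most genes would be lost. Of 45101 probe sets, 34945 had 1 gene symbol, 932 several, 9160 were not listed and 64 were controls, and symbols were updated by gene ID through RefSeq (34741 matched). A gene was tested if its probe set lay above the array median in at least 3 of the 18 arrays. The 3 arrays of each group limit the precision. Arrays correlated at 0.993 to 0.997 within groups, and no pair was identical.

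limma 3.58.1 in R 4.3.3 fitted 6 group means with an intensity trend. Tests were two-sided, with Benjamini-Hochberg adjustment over the 12578 genes and a threshold of 0.05. The fit was tested on simulated data. Errors are standard errors of the fit, and intervals are 95%. Genes given array by array were those past the threshold in an averaged knockout or diet contrast or in the interaction test, filled up to 6 by the smallest adjusted p of the averaged knockout effect, and F10, Mbl1 and Kng1 were described further after their values were seen. From each other list at most 4 called genes were named, or 2 as values. Promoter letters were searched on both strands over 250 bases, in RefSeq windows of GRCm38.p6. Alternatives covered normalization, centring, filters, probe set choice, trend, array weights, a replicate block, the samples fitted and the omission of each array in turn. The 35 genes, the lists and the tests were chosen with earlier results of these data known.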

Additional observations from a re-analysis of the deposited data

Results flagged for a closer look

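F10, the gene of coagulation factor X, had opposite values for fish/fungal oil minus lard in the 2 genotypes. In controls the log2 difference was -0.209 ± 0.087 (SE), and all 3 pools on fish/fungal oil lay below all 3 on lard. In knockouts it was 0.161 ± 0.087, and all 3 pools on fish/fungal oil lay above all 3 on lard. Neither difference passed the threshold (adjusted p = 0.52 and 0.67, limma). The F test of a dependence of the knockout effect on diet, which uses all 3 diets, gave an unadjusted p of 0.026 and an adjusted p of 1.00 for F10, so a difference between the genotypes was not shown. F10 was the only 1 of the 32 genes whose arrays separated in opposite directions in this way. The share of all genes tested with such a pattern was not counted, so this 1 gene has no background beside it.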

How the results depend on the processing

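The 2 calls of the averaged knockout effect became 1 after repeated quantile normalization or centring arrays on the median of the genes tested (C9 both times), 1 without the intensity trend (Pros1) and 0 without the filter on dim genes. They became 3 with a filter at the 75th percentile or array weights (C2 added), and stayed 2 but were Pros1 and C2, with C9 lost, with the mean of all probe sets or without _s_at, _x_at and _a_at probe sets. Calls over all genes moved too, from 575 in the main fit to 846 with array weights. They were 516 without the filter and 479 with the 75th percentile filter, which change the number of genes tested. With 1 array left out they ran from 371 to 698. The 1 call for fish/fungal oil against lard became 0 with centring or with only the groups compared in the fit, and 2 with a filter at the 75th percentile (Kng1 and Mbl2). There 292 of all genes were called in the main fit, and 300, 233 and 268 with these settings. The 1 call against canola oil became 0 with centring, no filter, the mean of all probe sets, no _s_at, _x_at and _a_at sets, no trend, array weights or only the groups compared. All genes gave 124 calls there in the main fit and 101 to 160 with these settings. Leaving out 1 array gave 0 to 3 calls for the averaged knockout effect, and 0 to 2 for fish/fungal oil against lard, for fish/fungal oil against canola oil and for any difference among the 6 groups, and 0 for every other comparison. The replicate number as a block gave 1 call for the knockout effect (C2) and 2 for fish/fungal oil against canola oil (C2 and Mbl2). The labels gave no pairing between samples. Deviations of same-numbered arrays correlated at -0.40 to 0.46 over 45 pairs (mean -0.0041), 17 of them above 0.1. The 90 other pairs ran from -0.38 to 0.46, with 27 above 0.1. A mean near 0 over all groups cannot exclude a pairing or batch shared by some groups, which was not tested. No value changed its direction while called. Over all alternatives, single-gene differences lost a call 65 times and gained a call 15 times, 1 moved by more than the spread between pools without a call (Serpinc1 for fish/fungal oil against lard, -0.033 with centring), and 2569 did neither. Whether signal limits these bright genes was not tested. With 3 pools a group, 95% intervals of the averaged knockout difference lay within 0.2 of 0 for 18 of the 32 genes. For the others, differences of 0.2 log2 or more were not excluded, and 27 of the 32 intervals lay within 0.3 and 31 within 0.5. Within single diets fewer intervals lay within 0.2 of 0, 7 of the 32 on lard, 12 on canola oil and 9 on fish/fungal oil.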
